A study of Mus musculus with 12 samples.

Results

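Of the genes that encode the carriers and enzymes between vitamin A and retinoic acid, 9 are described here in mouse macrophages. They are Rbp4, Rdh1, Rdh10, Dhrs9, Dhrs3, Rdh13, Rdh14, Aldh1a2 and Cyp26b1. The genes were chosen by symbol for their place in retinoid synthesis, clearance and transport, with earlier results of these data known. All 9 symbols were found once among the 13553 genes of the table. Polyadenylated RNA had been sequenced from bone marrow derived macrophages of wild-type male C57BL/6 mice, grown with 10 ng/mL of the macrophage growth factor M-CSF. Cells were first kept for 24 h with 20 ng/mL IL4 or in IL4-free medium (the pre-treatment is labelled PBS), and after a wash received 1 µM all-trans retinoic acid (RA) or only its solvent DMSO for 6 h. The 4 groups hold 3 libraries each, with replicates numbered 2, 3 and 4. Cells without IL4 are called naive (naive vehicle or naive RA) and cells with it IL4 (IL4 vehicle or IL4 RA). The labels do not say whether replicates were separate mice or separate cultures, so the tests rest on a spread between libraries that may be technical only.

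As background, retinol travels in blood bound to retinol binding protein. Inside cells, dehydrogenases of the short-chain family oxidize retinol to retinaldehyde, other members of that family reduce it back, and aldehyde dehydrogenases oxidize retinaldehyde irreversibly to RA. Cytochrome P450 enzymes of the CYP26 family then hydroxylate RA for removal. In many cells RA raises the genes that lower its own level, and IL4 is known to induce RA synthesis in macrophages.

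Values were log2 CPM (read counts scaled to library size, on a log scale) as the authors deposited them. The lowest value, -3.67, was taken to stand for no reads, and 1 read was worth an estimated 0.021 to 0.032 CPM. That puts the depth at an estimated 31300000 to 47600000 reads per library, lowest in the 3 IL4 RA libraries. A gene was called where the adjusted p of the linear model over all 12116 tested genes was below 0.05. All 7 macrophage markers listed (Adgre1, Csf1r, Cd68, Itgam, Lyz2, Mertk and Fcgr1) were present in every group, and their summed level was 34400 to 38700 CPM in the 6 naive libraries and 20400 to 23000 CPM in the 6 IL4 libraries. Most of that difference was Lyz2 (24900 to 29100 against 13400 to 15600 CPM). In naive vehicle and IL4 vehicle, mean log2 CPM was 10.34 and 10.30 for Cd68 and 10.09 and 10.18 for Itgam. It was lower in IL4 vehicle for Adgre1 (11.46 and 10.45), Csf1r (12.05 and 11.6), Mertk (6.15 and 4.99) and Fcgr1 (7.68 and 6.61). In bulk RNA, fewer cells that express a gene and less of its RNA per cell cannot be told apart.

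The stretches before the transcription starts of Cyp26b1, Dhrs3, Dhrs9, Aldh1a2 and Rbp4 are shown here. Several of these genes changed together with RA or with IL4. The stretches of Rdh1 and Rdh14 were also searched, held none of the motifs below and are not shown. Each is the 250 bases before a RefSeq start (GRCm38.p6), in the direction of the gene. Capitals mark matches to the letters TATAAA on the gene strand, to TTC and GAA separated by 3 or 4 bases on either strand, or on either strand to a half-site. The half-sites searched were AGGTCA, and beside it AGTTCA, also GGGTCA, as well as GGTTCA. Motifs of TTC and GAA are the kind that STAT6, a factor activated by the IL4 receptor, binds. RA receptors bind pairs of the half-sites.
Cyp26b1, chr6:84593811-84594060, minus strand: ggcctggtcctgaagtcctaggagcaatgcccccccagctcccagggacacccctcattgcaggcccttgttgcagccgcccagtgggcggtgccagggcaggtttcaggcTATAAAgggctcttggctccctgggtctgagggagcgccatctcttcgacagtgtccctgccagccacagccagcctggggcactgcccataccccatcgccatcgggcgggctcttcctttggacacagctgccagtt
Dhrs3, chr4:144892577-144892826, plus strand: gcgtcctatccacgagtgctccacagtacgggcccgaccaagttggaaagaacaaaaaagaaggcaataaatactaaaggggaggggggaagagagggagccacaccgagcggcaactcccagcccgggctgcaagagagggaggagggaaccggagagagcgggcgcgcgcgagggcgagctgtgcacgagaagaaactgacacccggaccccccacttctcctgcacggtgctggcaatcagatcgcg
Dhrs9, chr2:69380212-69380461, plus strand: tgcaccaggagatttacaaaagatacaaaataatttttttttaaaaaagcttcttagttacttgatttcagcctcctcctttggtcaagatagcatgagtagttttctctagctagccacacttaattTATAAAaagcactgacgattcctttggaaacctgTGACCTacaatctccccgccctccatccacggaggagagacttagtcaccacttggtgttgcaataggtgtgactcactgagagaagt
Aldh1a2, chr9:71215539-71215788, plus strand: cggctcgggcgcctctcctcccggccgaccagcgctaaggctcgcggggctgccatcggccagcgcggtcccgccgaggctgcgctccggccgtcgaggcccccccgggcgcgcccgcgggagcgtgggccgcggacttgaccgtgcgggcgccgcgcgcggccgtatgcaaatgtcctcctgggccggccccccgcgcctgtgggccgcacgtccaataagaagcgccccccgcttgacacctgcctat
Rbp4, chr19:38125322-38125571, minus strand: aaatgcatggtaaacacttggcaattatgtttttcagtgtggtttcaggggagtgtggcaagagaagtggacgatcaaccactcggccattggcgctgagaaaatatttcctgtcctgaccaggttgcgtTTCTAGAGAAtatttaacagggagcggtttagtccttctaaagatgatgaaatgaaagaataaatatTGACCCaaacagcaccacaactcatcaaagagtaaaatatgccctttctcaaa
Rbp4, chr19:38124812-38125061, minus strand: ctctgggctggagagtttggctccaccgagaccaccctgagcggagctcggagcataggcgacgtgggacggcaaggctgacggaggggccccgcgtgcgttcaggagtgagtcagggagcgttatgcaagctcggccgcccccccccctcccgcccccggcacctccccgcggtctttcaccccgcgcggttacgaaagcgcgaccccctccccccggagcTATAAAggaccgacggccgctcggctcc
The Cyp26b1 window held TATAAA, which ends 134 bases before the start used, and no half-site. This window reaches into the gene span, whose upstream end is 84593908. The Dhrs3 window shown held none of these letters. It lies inside the gene span, which begins at 144892534, and the bases before that position were not searched. The other 2 Dhrs3 starts lie downstream and share 1 TTCTGGAGAA, which ends 110 and 170 bases before them. The Dhrs9 window held TATAAA and 1 AGGTCA on the reverse strand. The Aldh1a2 window held none of the motifs and was 77.6% G and C, against a median of 52.4% over all windows. Of the 2 Rbp4 windows, the upstream one held TTCTAGAGAA and 1 GGGTCA on the reverse strand, and the downstream one held TATAAA, which ends 23 bases before its start. Of 32851 such windows over all genes, 7.59% held TATAAA, 5.85% TTC and GAA at a spacing of 4 bases and 7.02% at a spacing of 3, 14% AGGTCA and 38.6% at least 1 of the half-sites. Directly repeated half-sites spaced by 5, 2 or 1 bases were in 0.0883%, 0.174% and 0.164% of all windows and in none of the 10 member windows searched, which cover 7 members. An absent match says only that these letters are not in these 250 bases.

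RA raised Cyp26b1, a clearance enzyme gene, and Dhrs3, the gene of a retinaldehyde reductase, in naive and in IL4 cells, and lowered Dhrs9 in naive cells. IL4 raised Aldh1a2, whose enzyme makes RA, from at most 0.131 CPM above the lowest value to 26.9 to 57 CPM, together with Rbp4, Dhrs9, Rdh1 and, by less, Dhrs3, and lowered Rdh10. Rdh14 was not called in any comparison.

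**Figure D1:**
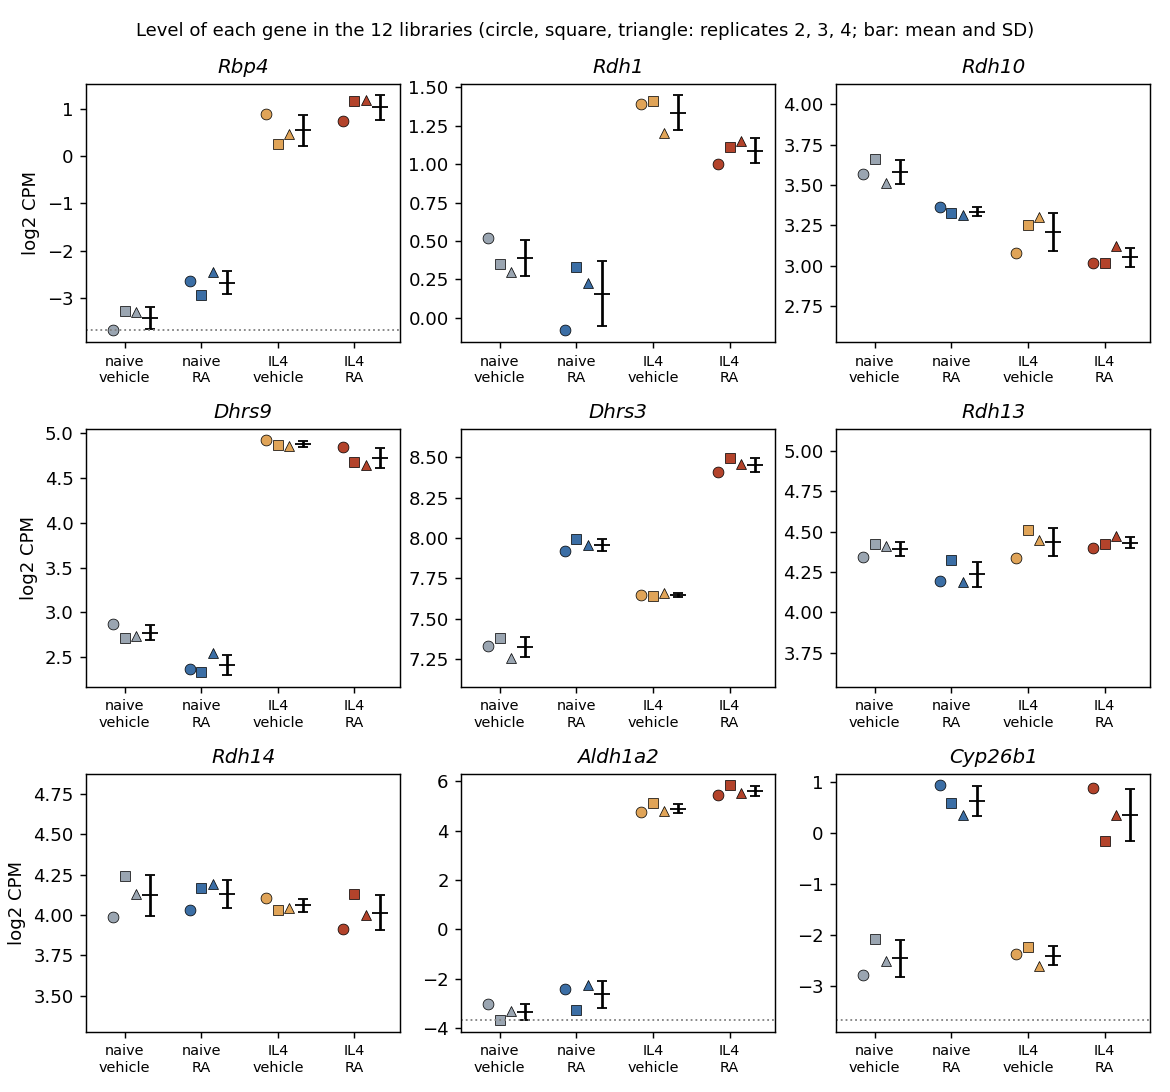
Level of each of the 9 genes in log2 CPM (vertical axes, each with its own range) in the 12 libraries by group, with the group mean and SD; the dotted line is the lowest value of the table, -3.67. Cyp26b1 is high in the 6 RA libraries, Aldh1a2 and Rbp4 in the 6 IL4 libraries, and Dhrs3 is lowest in naive vehicle and highest in IL4 RA.

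Transport came first in the pathway. Rbp4 (Entrez 19662, chromosome 19, 38116620 to 38125321, minus strand) encodes the plasma carrier of retinol. Its log2 CPM was -3.67, -3.27 and -3.30 in naive vehicle and -2.64, -2.93 and -2.46 in naive RA. It was 0.90, 0.26 and 0.47 in IL4 vehicle and 0.73, 1.15 and 1.19 in IL4 RA. All 6 IL4 libraries lay far above all 6 naive ones. IL4 raised Rbp4 by 3.95 in vehicle (SE 0.29, adjusted p = 5.8e-08) and by 3.70 in RA (SE 0.29, adjusted p = 1.3e-07). These sizes depend on the small count added before the logarithm, since naive vehicle held an estimated 2 reads in 3 libraries and naive RA 9. With 1 CPM added before the logarithm they were 1.23 and 1.46. The ratio of estimated reads was 89 in vehicle (95% exact interval 24.2 to 740, counting error only) and 24.5 in RA (12.6 to 54.4). With RA, Rbp4 differed by 0.74 in naive cells (adjusted p = 0.165) and by 0.48 in IL4 cells (adjusted p = 0.325), and was not called in either. The naive groups did not overlap, at these few reads, and the IL4 groups did. For RA in naive cells the ratio of estimated reads was 5.15 (95% exact interval 1.07 to 49, counting error only).

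Retinol oxidation is the next step. Rdh10 (Entrez 98711, chromosome 1, 16105882 to 16132550, plus strand) encodes the main retinol dehydrogenase of the mouse embryo. Its log2 CPM was 3.57, 3.66 and 3.51 in naive vehicle, 3.36, 3.323 and 3.31 in naive RA, 3.08, 3.25 and 3.30 in IL4 vehicle and 3.02, 3.02 and 3.12 in IL4 RA. Every IL4 library was below every naive library of the same treatment. IL4 lowered Rdh10: it fell by 0.37 in vehicle (SE 0.07, adjusted p = 6.2e-04) and fell by 0.28 in RA (SE 0.07, adjusted p = 0.00474). The RA differences were -0.25 in naive cells (SE 0.07, adjusted p = 0.0644) and -0.16 in IL4 cells (SE 0.07, adjusted p = 0.19) and missed the threshold. That in naive cells was called in 1 of 20 alternatives, without IL4 vehicle replicate 2 (adjusted p = 0.037; range over alternatives 0.037 to 0.18).

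Dhrs9 (Entrez 241452, chromosome 2, 69380462 to 69403086, plus strand) encodes a dehydrogenase that in humans oxidizes retinol, and also steroids. Its log2 CPM was 2.87, 2.72 and 2.73 in naive vehicle and 2.36, 2.33 and 2.54 in naive RA, and 4.92, 4.87 and 4.85 in IL4 vehicle and 4.85, 4.67 and 4.65 in IL4 RA. The lowest IL4 library exceeded the highest naive one, and within each state the RA libraries lay below the vehicle libraries. IL4 raised Dhrs9 by 2.11 in vehicle (SE 0.08, adjusted p = 5.9e-11) and by 2.31 in RA (SE 0.08, adjusted p = 3.1e-11). RA lowered it in naive cells, where it fell by 0.36 (SE 0.08, adjusted p = 0.0107). That call was lost without naive RA replicate 3 or naive vehicle replicate 2 (adjusted p = 0.0517 each) and in a fit of the naive libraries alone (0.0561), with a range over 20 alternatives of 0.00669 to 0.0561. In IL4 cells the difference was -0.16 (SE 0.08, adjusted p = 0.206), and the difference between the 2 RA effects was 0.20 (SE 0.11, adjusted p = 0.648).

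Rdh1 (Entrez 107605, chromosome 10, 127759726 to 127768299, plus strand) encodes a mouse retinol dehydrogenase and was scarce. Its level ranged from -0.08 to 0.52 log2 CPM in the 6 naive libraries and from 1.00 to 1.41 in the 6 IL4 libraries, with no overlap. IL4 raised it by 0.94 in vehicle (SE 0.15, adjusted p = 9.9e-05) and by 0.93 in RA (SE 0.15, adjusted p = 1.2e-04), or by 0.62 and 0.58 with 1 CPM added before the logarithm. RA differences were -0.23 in naive and -0.25 in IL4 cells, and neither was called (adjusted p = 0.429 and 0.331). The values of Rdh1 are uncertain, because 27.2% of the 31-base stretches of its GENCODE vM21 transcript also occur in transcripts of other genes, chiefly its neighbours Rdh16f1, Rdh19, Rdh16, Rdh9 and Rdh7. Rdh16f1 also overlaps it on the same strand. For the other 8 members that share was at most 1.09%.

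On the reducing side, Dhrs3 (Entrez 20148, chromosome 4, 144892534 to 144928209, plus strand) encodes a reductase that returns retinaldehyde to retinol and is known to work together with the Rdh10 enzyme. Its log2 CPM was 7.33, 7.38 and 7.26 in naive vehicle, and 7.92, 7.99 and 7.96 in naive RA. In IL4 vehicle it was 7.65, 7.64 and 7.66, and in IL4 RA 8.41, 8.50 and 8.46. No group overlapped another, and the order was naive vehicle, IL4 vehicle, naive RA and IL4 RA. RA raised Dhrs3 by 0.63 in naive cells (SE 0.04, adjusted p = 5.1e-07) and by 0.80 in IL4 cells (SE 0.04, adjusted p = 2.2e-08). IL4 raised it by 0.32 in vehicle (SE 0.04, adjusted p = 1.0e-05; 0.20 after quantile normalization) and by 0.50 in RA (SE 0.04, adjusted p = 1.7e-07). The RA effect was 0.17 larger in IL4 than in naive cells (95% interval 0.05 to 0.29, unadjusted p = 0.00843), which did not pass over all genes (adjusted p = 0.355). Among the 12116 tested genes the RA increases of Dhrs3 ranked 146 from the top in naive and 138 in IL4 cells, so many genes rose by more.

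Rdh13 and Rdh14 encode enzymes that in humans reduce retinaldehyde in vitro, and Rdh13 lies in mitochondria. Rdh13 (Entrez 108841, chromosome 7, 4425665 to 4471280, minus strand) ranged from 4.19 to 4.33 log2 CPM in naive RA and from 4.34 to 4.51 in the other 3 groups. It was higher in IL4 RA than in naive RA by 0.20 (SE 0.06, adjusted p = 0.0104) and differed by 0.04 between IL4 and naive cells in vehicle (adjusted p = 0.571). Its RA difference in naive cells was -0.16 (SE 0.06, adjusted p = 0.139), with no overlap of the groups, and in IL4 cells it was -0.001 (adjusted p = 0.994). Rdh14 (Entrez 105014, chromosome 12, 10390748 to 10395562, plus strand) ranged from 3.91 to 4.24 over all 12 libraries. Its 4 differences between groups lay between -0.12 and 0.01, and the group ranges overlapped in each. The 95% interval was -0.15 to 0.17 for RA in naive cells and -0.28 to 0.05 for IL4 in RA.

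Among the members, the step to RA is represented by Aldh1a2 (Entrez 19378, chromosome 9, 71215789 to 71296243, plus strand), which encodes a retinaldehyde dehydrogenase. Its log2 CPM was -3.05, -3.67 and -3.30 in naive vehicle and -2.41, -3.26 and -2.25 in naive RA. It reached 4.75, 5.11 and 4.80 in IL4 vehicle and 5.44, 5.84 and 5.51 in IL4 RA. The naive values stand for an estimated 2, 0 and 1 reads in vehicle and 4, 1 and 5 reads in RA, and the lowest IL4 library held an estimated 971.5. IL4 raised it by 8.23 in vehicle (SE 0.24, adjusted p = 1.1e-11) and by 8.24 in RA (SE 0.24, adjusted p = 1.3e-11), the fourth and the fifth largest increases among the 12116 tested genes. With 1 CPM added before the logarithm the increases were 4.90 and 5.50, so the sizes depend on the added count. The ratio of estimated reads was 1268 in vehicle (95% exact interval 433 to 6150, counting error only) and 547 in RA (297 to 1141).

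Within IL4 cells, every RA library exceeded every vehicle library for Aldh1a2, by 0.71 on average (SE 0.24, 95% interval 0.18 to 1.24), yet the gene was not called (adjusted p = 0.0809). That model gives the 4 groups 1 common spread, and the SD was 0.54 in naive RA, at 1 to 5 reads, against 0.20 and 0.21 in the IL4 groups. The same difference was called when the 6 IL4 libraries were fitted alone (SE 0.11, adjusted p = 0.00341), with 1 CPM added before the logarithm (0.69, adjusted p = 9.5e-04) and without naive RA replicate 3 (adjusted p = 0.0218). Over all 20 alternatives the adjusted p ranged from 9.5e-04 to 0.264, and the difference from 0.59 to 0.82. In naive cells the RA difference was 0.70 (adjusted p = 0.121) with overlapping groups. It was called only without naive RA replicate 3 (1.01, adjusted p = 0.0112), and the ratio of estimated reads was 3.82 (95% exact interval 0.982 to 21.6, counting error only). The difference between the 2 RA effects was 0.01 (95% interval -0.74 to 0.76, adjusted p = 0.995). With 1 CPM added before the logarithm it was 0.60 (SE 0.15, adjusted p = 0.162). Its size thus depends on the added count, at so few reads in naive cells, and it was not called in either form.

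Cyp26b1 (Entrez 232174, chromosome 6, 84571414 to 84593908, minus strand) encodes a P450 that hydroxylates RA. Its log2 CPM was -2.79, -2.08 and -2.52 in naive vehicle and -2.38, -2.24 and -2.61 in IL4 vehicle. It was 0.93, 0.58 and 0.36 in naive RA and 0.87, -0.15 and 0.35 in IL4 RA. Every RA library stood above every vehicle library, and IL4 RA replicate 3 was the lowest of the 6. RA raised Cyp26b1 by 3.09 in naive cells (SE 0.32, adjusted p = 4.2e-05) and by 2.77 in IL4 cells (SE 0.32, adjusted p = 7.0e-05), rank 5 and rank 7 among the increases of all tested genes. With 1 CPM added the changes were 1.16 and 1.00. The ratio of estimated reads was 14.6 in naive (95% exact interval 8.32 to 28) and 11.9 in IL4 cells (6.7 to 23), from 13 reads in each set of 3 vehicle libraries. These intervals hold counting error only, not the spread between libraries. Even with RA the gene stayed scarce, at 1.2 to 1.83 CPM above the lowest value in naive and 0.822 to 1.75 in IL4 cells. The IL4 differences were 0.06 in vehicle (adjusted p = 0.89) and -0.27 in RA (adjusted p = 0.496), neither called. That in vehicle changed direction and was called after quantile normalization (-1.10, adjusted p = 0.0113; range over alternatives 0.0113 to 0.973).

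**Figure D2:**
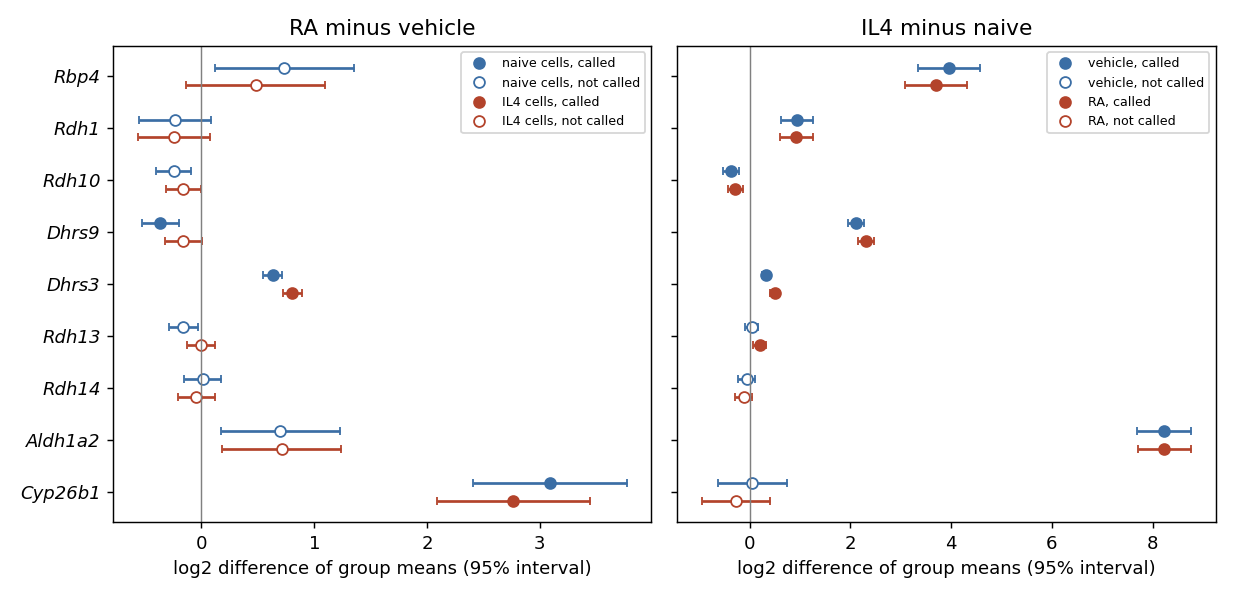
Log2 difference of group means with its 95% interval for each gene, RA minus vehicle (left) and IL4 minus naive (right); filled points were called at an adjusted p below 0.05. The RA increases of Cyp26b1 (3.09 and 2.77) and Dhrs3 (0.63 and 0.80) and the IL4 increases of Aldh1a2 (8.23 and 8.24), Rbp4 (3.95 and 3.70) and Dhrs9 (2.11 and 2.31) stand out.

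Counted over the 9 genes, RA in naive cells raised 2 (Cyp26b1 and Dhrs3) and lowered 1 (Dhrs9), where 6.26% of all tested genes were called, 3.24% higher and 3.03% lower. In IL4 cells RA raised the same 2, Cyp26b1 and Dhrs3, where 11.7% were called, 6.5% higher and 5.18% lower. IL4 in vehicle raised 5 (Aldh1a2, Rbp4, Dhrs9, Rdh1 and Dhrs3) and lowered Rdh10, where 60.1% of tested genes were called, 30.5% higher and 29.6% lower. In RA it raised 6, those 5 and Rdh13, and lowered Rdh10, where 55.7% were called, 29% higher and 26.7% lower. The 6 of 9 and 7 of 9 under IL4 are thus not far from the background. The median difference over the 9 genes was 0.01 for RA in naive cells, -0.001 for RA in IL4 cells, 0.33 for IL4 in vehicle and 0.50 for IL4 in RA, and over all tested genes it lay between -0.007 and 0.002. All 9 genes passed the filter of 1 CPM in at least 3 libraries, but Aldh1a2 and Rbp4 passed only through the IL4 libraries and Cyp26b1 only through the RA libraries, so their counts were in part fixed by the filter. For the difference between the RA effects, 0 of 9 genes were called in limma, where 0.38% of tested genes were called, 0.338% higher and 0.0413% lower. At an unadjusted p below 0.05 there was 1 of 9 (Dhrs3), and 1006 of all 12116 tested genes.

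Levels can be compared between genes only per length, and were set per kb of median GENCODE transcript, after subtracting the lowest value. In naive vehicle Dhrs3 led with 124 ± 5.45 CPM per kb (SD, n = 3). Rdh14 (11.7 ± 1.04) and Rdh13 (11.7 ± 0.36) followed and did not differ beyond their spread, then came Rdh10 (3.31 ± 0.18), Dhrs9 (1.58 ± 0.10) and Rdh1 (0.315 ± 0.027). Cyp26b1 (0.0256 ± 0.0113), Rbp4 (0.0216 ± 0.0187) and Aldh1a2 (0.00972 ± 0.00947) came last and overlapped in spread. The 3 genes of the reducing side thus held the 3 highest levels.

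In IL4 vehicle Dhrs3 was still first (156 ± 1.21 CPM per kb), and Aldh1a2 moved from the last to the second place (13.1 ± 1.85), beside Rdh13 (12 ± 0.72) and Rdh14 (11.2 ± 0.32), from which it did not differ beyond the spread. Dhrs9 (6.87 ± 0.17) passed Rdh10 (2.56 ± 0.21), followed by Rbp4 (1.85 ± 0.45), Rdh1 (0.623 ± 0.050) and Cyp26b1 (0.0266 ± 0.0058). In IL4 RA Dhrs3 (272 ± 8.45) and Aldh1a2 (21.5 ± 3.23) stood highest, and Cyp26b1 at 0.301 ± 0.113 was still last. In naive RA Cyp26b1 was at 0.356 ± 0.077, close to Rdh1 at 0.266 ± 0.041, and Dhrs3 was at 193 ± 5.01. Dhrs3 made up 76.3% to 87.7% of the summed level of the 9 genes in each group. With the longest transcript in place of the median, Dhrs3 stayed first (68.6 to 150 CPM per kb), while Rdh13 fell to 6.19 to 7.11, below Rdh14.

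**Figure D3:**
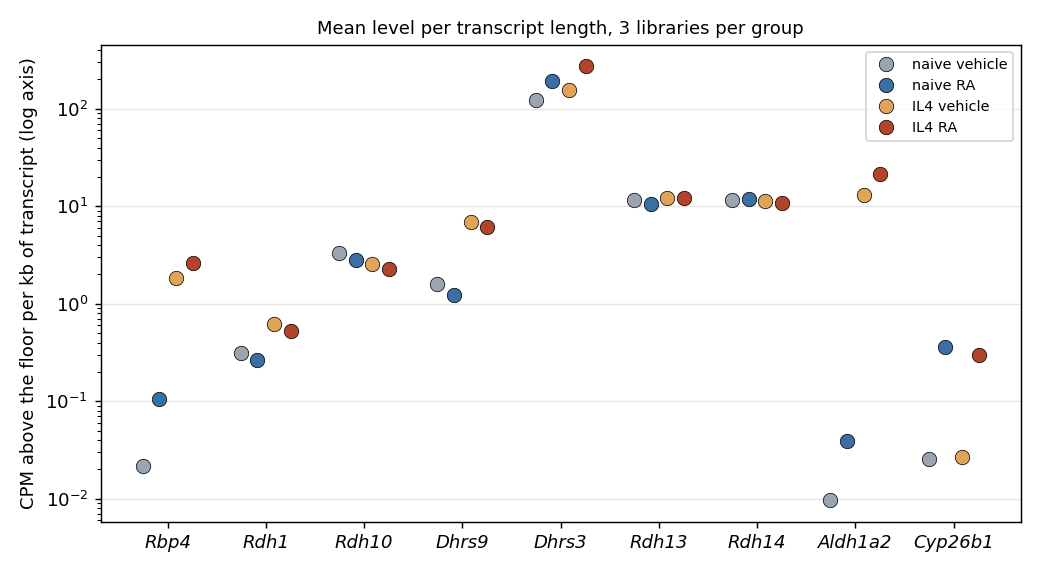
Mean level of each gene in CPM above the lowest value, per kb of median transcript length (log axis), in the 4 groups of 3 libraries. Dhrs3 is the highest in every group, and Aldh1a2 lies at 0.00972 and 0.0394 in the naive groups and at 13.1 and 21.5 in the IL4 groups.

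The balance between the enzymes was read within each library. The difference Dhrs3 minus Rdh10 was 3.74 ± 0.02 log2 CPM in naive vehicle, 4.62 ± 0.06 in naive RA, 4.44 ± 0.11 in IL4 vehicle and 5.40 ± 0.07 in IL4 RA (SD, n = 3), and the RA libraries lay above the vehicle libraries of the same state in each case. Dhrs3 minus Dhrs9 was 4.55 ± 0.11 in naive vehicle and 5.54 ± 0.12 in naive RA, and 2.77 ± 0.04 in IL4 vehicle and 3.73 ± 0.15 in IL4 RA. With IL4, Dhrs3 was thus higher relative to Rdh10 and lower relative to Dhrs9. Dhrs9 minus Rdh10 was -0.80 ± 0.13 in naive vehicle and -0.92 ± 0.13 in naive RA, but 1.67 ± 0.15 in both IL4 groups. Between these dehydrogenases of the oxidizing side, Rdh10 RNA was the more abundant in naive and Dhrs9 RNA in IL4 cells, and the RA and vehicle means of this difference lay within 1 SD of each other. As per-length levels the order was the same, as given above. These differences are descriptions, with no test.

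**Figure D4:**
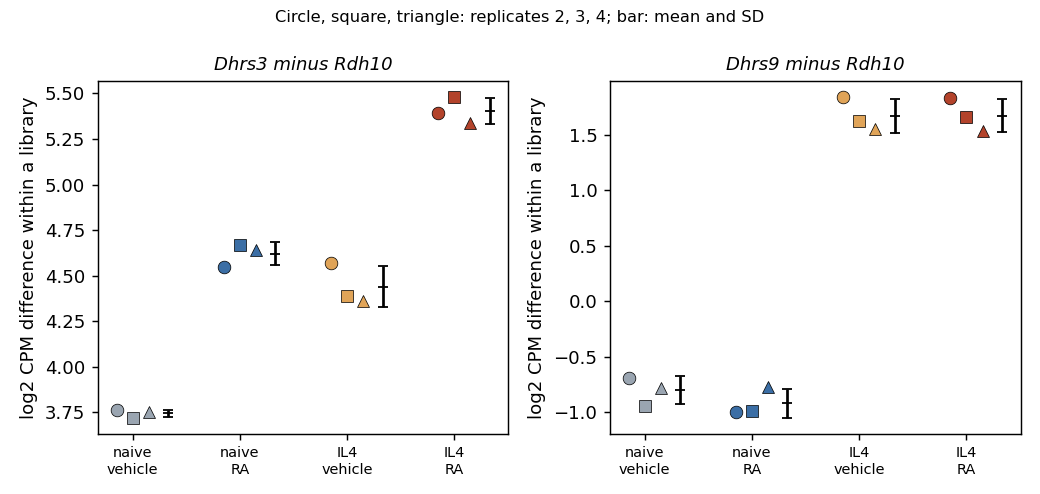
Difference in log2 CPM between Dhrs3 and Rdh10 (left) and between Dhrs9 and Rdh10 (right) within each of the 12 libraries, with the group mean and SD. The left difference is higher with RA in both states (3.74 to 4.62 and 4.44 to 5.40), and the right one moves from about -0.80 and -0.92 in naive to 1.67 in IL4 libraries.

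Markers of other cell types were read beside the IL4 increases. Of 9 dendritic cell markers 6 were measured, and their summed level was 40.5 to 49.6 CPM in the naive libraries and 1700 to 2010 CPM in the IL4 libraries. Most of it was the integrin gene Itgax (1630 to 1900 CPM after IL4). Zbtb46, a factor that defines classical dendritic cells, was at 0.272 to 0.573 CPM in naive and 3.99 to 6.11 CPM in IL4 libraries, and Ccr7 at 3.55 to 7.1 and 65.1 to 98.3. Clec9a was at 0.14 to 0.342 CPM in naive, 0.659 to 1.14 in IL4 vehicle and 1.41 to 1.65 in IL4 RA libraries, so it was higher in every IL4 library. Xcr1 was at 0.24 to 0.778 CPM in all libraries, and Kit was lower after IL4. Flt3, Cd209a and Itgae were not analysed here. Of 9 eosinophil, basophil and mast cell markers 3 were measured, and their sum was 9.01 to 11.3 CPM in naive, 69.5 to 86.8 in IL4 vehicle and 86.9 to 105 in IL4 RA. In naive libraries most of it was Ccr3 (7.04 to 8.31 CPM), and in IL4 libraries Siglecf (57.5 to 85.1 CPM). Stromal and endothelial markers, 8 of 9 measured, summed to 35.9 to 52.5 CPM in naive and 14.5 to 29.9 CPM in IL4 libraries. Neutrophil markers (2 of 7 measured) reached at most 4.18 CPM, and Cd4, the only one measured of 8 T and B cell markers, was at 15.1 to 18.6 CPM in naive and 2.8 to 4.18 CPM in IL4 libraries. No measured marker of the dendritic, eosinophil or stromal lists was at 0 in a library. The part of such cells in the IL4 increases of Aldh1a2, Rbp4 and Dhrs9 was not tested.

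The rest of the retinoid pathway was taken from a list of 46 other transport, storage, oxidation and clearance genes, of which 19 were measured and 16 tested. Aldh1a1, Aldh1a3, Cyp26a1 and Cyp26c1 were on the list but were not analysed here. With RA, 0 of the 16 were called in naive cells, where 6.26% of all tested genes were called. At an unadjusted p below 0.05 in limma there were 3 of the 16, and 2415 of all 12116 tested genes. In IL4 cells 1 of the 16 was called, where 11.7% of all tested genes were called, so these counts are near the background. It was the retinol and retinaldehyde oxidoreductase gene Rdh11, which fell by 0.16 (SE 0.05, adjusted p = 0.0457). That call held in 8 of 20 alternatives (adjusted p 0.0358 to 0.151) and was lost without any 1 of 10 libraries. IL4 raised 5 and lowered 3 in vehicle, where 60.1% of all tested genes were called, and raised 5 and lowered 4 in RA, where 55.7% were called, so 8 of 16 and 9 of 16 are near the background. Cyp1b1, a P450 gene whose enzyme can also oxidize retinol, rose by 2.47 in vehicle (SE 0.23) and 3.04 in RA (SE 0.23). Lpl, the lipoprotein lipase gene that helps cells take up retinyl esters, rose by 1.63 and 1.87. Lrp1, a receptor for lipoprotein remnants, fell by 0.54 in vehicle (SE 0.09, adjusted p = 2.2e-04), and its difference in RA was -0.19 (adjusted p = 0.106), not called and with overlapping groups. Bco2, a carotenoid-cleaving enzyme gene, fell by 0.61 in vehicle (adjusted p = 0.0495) and by 0.76 in RA (adjusted p = 0.0197), calls that ended without IL4 vehicle replicate 4 (adjusted p = 0.2) and without IL4 RA replicate 4 (adjusted p = 0.0884), among other single libraries. Stra6l, which encodes a receptor for retinol binding protein, rose by 0.43 in vehicle (SE 0.10, adjusted p = 0.00165) and by 0.36 in RA (SE 0.10, adjusted p = 0.00601). The median difference over the 16 genes lay between -0.03 and 0.02 in these 4 comparisons.

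Genes with the most similar profile were listed for 4 members by Pearson r over the 12 libraries, which share their 4 groups, and as a description only. Aldh1a2 was most like Atp5b, Gpc1, Nes, Itgb2 and Ppm1j (r 0.997 to 0.998), which were all higher in the IL4 groups. Their IL4 changes were of very different size: Gpc1, a glypican gene, had means of 3.56 and 8.31 log2 CPM in naive and IL4 vehicle, and Atp5b, of the mitochondrial ATP synthase, 8.98 and 9.66. Rbp4 was most like the ribosomal protein genes Rps18, Rps3a1 and Rpl9, with Ccl9 and Sting1 (r 0.994 to 0.995), whose own IL4 changes were small beside that of Rbp4. Cyp26b1 was most like Camkk1, Mdm1, Samsn1, Plxna4os1 and Vps26c (r 0.965 to 0.978), which were higher with RA in both states. For Dhrs3 these were Fam117a, Hic1, Cxcl14, Rarb and Cd53 (r 0.977 to 0.989). Like Dhrs3, each of these 5 had its lowest mean in naive vehicle and its highest in IL4 RA. Rarb, an RA receptor gene and direct RA target, had means of -2.69 log2 CPM in naive vehicle and 1.42 in naive RA, and of -0.14 and 3.31 in the corresponding IL4 groups.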

How the data were processed

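Poly(A) RNA of 12 mouse macrophage libraries was measured with stranded TruSeq libraries read from 1 end, per the labels. The authors deposited log2 CPM with TMM scaling and a small prior count, and the submitters' processing notes name bcl2fastq 2.20, Salmon 0.13.1, edgeR 3.32.1 and GRCm38. Counts were not analysed here, and whether counting used strand is not given in the sources used here. The linear sums of the libraries were 950904 to 1056493 CPM. Depth was estimated as the median step above the lowest value among values under 0.035 CPM (10 to 32 genes per library), a window set after the values were seen, and read estimates and exact (Clopper-Pearson) intervals rest on it.

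The 12116 of 13553 genes that reached 1 CPM in 3 or more libraries were fitted together in limma 3.58.1 (R 4.3.3) with 1 mean per group, an intensity trend, two-sided tests and Benjamini-Hochberg adjustment per contrast. The 5 contrasts were RA in naive and in IL4 cells, IL4 in vehicle and in RA, and the difference of the RA effects. The model was checked on simulated data. Same-numbered libraries deviated together between the IL4 groups (correlations 0.245, 0.193 and 0.128) and the vehicle groups (0.14, 0.209 and 0.182), so the numbers were taken to pair them, from the data. A fit with the replicate block was an alternative. Other alternatives were no filter, 4 CPM, 1 CPM added before the logarithm, median centring, quantile normalization, no trend, only the groups compared, and each library left out.

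Members, lists and tests were chosen with earlier results of these data known. Named genes were all 9 members, the 4 largest called changes of the pathway list per contrast, the 5 genes most correlated with each of 4 members (predicted genes left out), and markers. Sequences and positions are RefSeq's (GRCm38.p6), and strands, lengths and shared 31-base stretches are from GENCODE vM21.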

Additional observations from a re-analysis of the deposited data

How the results depend on the processing

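Under the alternatives, 30 single-gene values changed direction, among them Cyp26b1 for IL4 in vehicle, which was also called after quantile normalization. Of the others, 27 lost a call, 5 gained a call and 992 kept direction and side of the threshold. The IL4 increases of Aldh1a2, Rbp4, Dhrs9, Rdh1 and Dhrs3, the IL4 decrease of Rdh10 and the RA increases of Cyp26b1 and Dhrs3 did so in every alternative in which the gene was tested. With a filter at 4 CPM, Cyp26b1, Rbp4 and Rdh1 were not tested, and RA then called 1 of the 6 remaining genes in IL4 cells.

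The count of genes called for RA in naive cells was 759 and, with single libraries left out, 416 (without naive vehicle replicate 4) to 885, with 452 without naive RA replicate 4, 500 without naive RA replicate 3 and 505 without naive vehicle replicate 2. For RA in IL4 cells it was 1416 and 894 (without IL4 RA replicate 3) to 1498. For the difference of the RA effects it was 46 and 17 (without naive RA replicate 3) to 67, with 15 without the intensity trend and 78 with the replicate block. The replicate block moved no other count by more than 1.5 times and changed no call of the 9 genes. Members called with single libraries left out were 2 to 4 for RA in naive and 2 to 3 in IL4 cells.

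Changes of direction arose in differences that were not called with the settings used. For IL4 in vehicle, Cyp26b1 was -1.10 after quantile normalization and -0.11 to 0.25 with libraries left out, and Rdh14 -0.13 to 0.001. The difference of the RA effects after quantile normalization was -0.014 for Aldh1a2, 0.69 for Cyp26b1 and 0.003 for Rdh1, and with 1 CPM added 0.22 for Rbp4. With libraries left out it was -0.30 to 0.20 for Aldh1a2, -0.13 to 0.072 for Rdh1 and -0.12 to 0.008 for Rdh14. RA differences with libraries left out were -0.048 to 0.037 for Rdh13 and -0.10 to 0.003 for Rdh14 in IL4 cells, and -0.055 to 0.072 for Rdh14 in naive cells. The cause was not tested.

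Same-numbered libraries correlated at 0.51, 0.277 and 0.0706 between the naive groups and at 0.0895, 0.186 and 0.126 between the RA groups, and 5 of 6 and 6 of 6 libraries were closest to their own number. Depth limits Aldh1a2 and Rbp4 in naive cells and Cyp26b1 in vehicle, all at 0 to 6 estimated reads per library.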
